A study of Homo sapiens with 6 samples.

Results

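Amino acid transporters of the solute carrier (SLC) families 1, 3, 6, 7, 36, 38 and 43 were examined in HeyA8-MDR cells treated with siGRAMD1B or siControl. Members were the probes whose annotated gene symbol belongs to 1 of these families, together with the pseudogene copies of SLC7A5, whatever their values. The choice of these families was made with earlier results of these data known. The rule found 82 probes for 59 genes among the 47231 probes of the array, which name 20046 genes, and 49 of these probes, for 38 genes, were bright enough to be tested. HeyA8 is an established human ovarian cancer line, HeyA8-MDR its subline with multidrug resistance, and every array carries RNA of this 1 subline. The tested cells received a small interfering RNA against GRAMD1B, which encodes a sterol transfer protein of the endoplasmic reticulum (3 arrays, numbered 2, 3 and 4), and the comparison cells received a control siRNA (3 arrays, numbered 1, 2 and 4). Dose, time after treatment and siRNA chemistry are not given in the sources used here. Whether the 3 arrays of a group stem from separate cultures is not stated either, and the p-values therefore reflect array-to-array spread that may be technical.

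Cells import amino acids through carriers that work as uniporters, exchangers or sodium- or proton-coupled pumps. Several SLC7 proteins are light chains that reach the plasma membrane when paired with a heavy chain of the SLC3 family, to which a disulfide bond links them. The best known pair is LAT1 (SLC7A5) with the CD98 heavy chain (SLC3A2), which takes up leucine and other large neutral amino acids, often in exchange for glutamine brought in by carriers such as ASCT2 (SLC1A5) and SNAT1 and SNAT2 (SLC38A1, SLC38A2). The pair is abundant in many tumours, where leucine uptake feeds the growth kinase complex mTORC1, and transcription of several transporter genes is under the amino acid response factor ATF4 and under MYC.

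The probes of SLC7A5 and SLC7A1 and 1 of the 2 tested probes of SLC3A2 were called higher in siGRAMD1B cells, and no transporter probe was lower past the threshold of an adjusted p under 0.05. The promoter windows of these 3 genes are shown because each has a called probe, that of SLC3A2 in the reported setting and only 5 of 15 others, and because elements for ATF4 and MYC are textbook features of such genes. Each runs 5′ to 3′ on the gene's strand over 250 bases before and 50 bases from the transcription start, as listed by RefSeq for GRCh38.p14. SLC7A5 lies at chr16:87869458-87869757 on the minus strand, SLC7A1 at chr13:29595639-29595938 on the minus strand and SLC3A2 at chr11:62881449-62881748 on the plus strand. Capitals mark letters that match CACGTG, the E-box bound by MYC among others, or TTNCATCA and its reverse complement TGATGNAA, the core of the composite element bound by ATF4 with C/EBP partners.
SLC7A5: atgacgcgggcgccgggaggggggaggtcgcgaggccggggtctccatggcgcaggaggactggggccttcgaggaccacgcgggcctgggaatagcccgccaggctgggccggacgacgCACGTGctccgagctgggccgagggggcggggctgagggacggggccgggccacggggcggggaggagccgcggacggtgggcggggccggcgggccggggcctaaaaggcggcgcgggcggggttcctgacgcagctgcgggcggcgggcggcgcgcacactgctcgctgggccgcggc
SLC7A1: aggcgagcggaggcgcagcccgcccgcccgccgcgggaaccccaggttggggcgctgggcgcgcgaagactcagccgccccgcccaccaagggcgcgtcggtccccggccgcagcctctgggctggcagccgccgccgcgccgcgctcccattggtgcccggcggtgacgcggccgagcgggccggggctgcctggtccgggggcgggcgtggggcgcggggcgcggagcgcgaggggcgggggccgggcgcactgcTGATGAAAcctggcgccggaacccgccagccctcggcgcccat
SLC3A2: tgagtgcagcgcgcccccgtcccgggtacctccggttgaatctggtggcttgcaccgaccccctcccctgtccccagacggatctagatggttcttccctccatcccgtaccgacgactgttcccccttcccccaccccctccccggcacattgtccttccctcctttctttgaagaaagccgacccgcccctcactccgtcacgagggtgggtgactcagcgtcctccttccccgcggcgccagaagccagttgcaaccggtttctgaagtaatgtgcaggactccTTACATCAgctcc

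The SLC7A5 window held CACGTG, starting 130 bases before the start site, and no TTNCATCA on either strand. The SLC7A1 window held TGATGAAA starting at base 8 of the transcript, and the SLC3A2 window held TTACATCA starting at base 38. Neither motif was found in the other 2 windows listed for SLC3A2, which are not printed. The SLC3A2 window shown is therefore the only listed window of that gene with a match. Which start site serves the transcript read by the called SLC3A2 probe was not tested. Of all 35116 promoter windows in the table, 3.62% held TTNCATCA on either strand and 7.26% held CACGTG, which reads the same on both strands; the motifs do not overlap each other in the windows shown. Counted by gene, TTNCATCA was found for 6 of the 44 transporter genes that have a window, tested or not, against 4.46% of all genes, and CACGTG for 9 of the 44, against 8.77% of all genes. The 6 genes with TTNCATCA, all of them tested, were SLC1A3, SLC1A4, SLC1A5, SLC38A1, SLC3A2 and SLC7A1. Their log2 differences between the groups had both signs, with -0.24, -0.01 and -0.26 for SLC1A3, SLC1A4 and SLC1A5, -0.12 and -0.10 for the SLC38A1 probes, 0.34 and 0.10 for the SLC3A2 probes and 0.56 for SLC7A1. The 9 genes with CACGTG were SLC7A5, SLC1A5, SLC1A7, SLC36A1, SLC38A5, SLC38A7, SLC43A1, SLC7A8 and SLC6A16, the last not tested. Their differences also had both signs, with 0.73 for SLC7A5, 0.26 for SLC38A5 and 0.18 for SLC1A7. SLC1A5 gave -0.26, SLC36A1 -0.22, SLC38A7 -0.19, SLC43A1 -0.09 and the tested SLC7A8 probe -0.07, and of these genes only SLC7A5 was called. A letter match is a description of the sequence and not evidence of binding.

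Values below are normalized log2 intensities after background correction and quantile normalization, with an offset of 50 that compresses the differences of dim probes. Differences are siGRAMD1B minus siControl on that scale, with the standard error (SE) of limma's moderated fit and its p adjusted by the Benjamini-Hochberg method over all 28338 tested probes. The median raw intensity per array lay between 102.70 and 128.83, and the number of arrays limits the precision. GRAMD1B itself, read by 1 dim probe, had 6.26, 6.23 and 6.17 in siGRAMD1B cells, against 6.42, 6.41 and 6.57 in siControl cells. All siGRAMD1B arrays were below all siControl arrays, but the difference of -0.25 ± 0.10 did not pass (limma adjusted p = 0.152). Of 8 ovarian carcinoma markers, 7 were tested and none of them was called, with PAX8 at 10.14 in siGRAMD1B and 10.25 in siControl cells and KRT8 at 11.44 and 11.10. EPCAM (6.23 and 6.42), MSLN (6.25 and 6.36) and MUC16 (6.08 and 6.15, not tested) were at or near the floor of the array. WT1 was dim (6.92 and 6.76), KRT18 was at 7.91 and 8.20 and KRT7 at 10.82 and 10.53. The mesenchymal markers were mixed as well. VIM was at 14.69 and 14.57 and TWIST1 at 8.07 and 8.27. FN1 (6.73 and 6.68), ZEB1 (6.71 and 6.61) and ZEB2 (7.12 and 7.14) were dim. Markers of other cells were mostly near the floor, such as PTPRC (6.17 and 6.19), CD3E (6.05 and 5.98) and PECAM1 (6.27 and 6.20), although the endothelial cadherin CDH5 was at 9.52 and 9.71. Among these markers CD68 (11.78 and 11.41), a lysosomal protein of macrophages that is also made by tumour cells, and the dim VWF probe (6.50 and 6.12) were called higher, while CDH2, a mesenchymal cadherin, was lower (12.31 and 12.69). ABCB1, the drug efflux pump of multidrug-resistant cells, was called higher (12.12 and 11.53, adjusted p = 0.0229) although its arrays overlapped. The part of these shifts in the transporter differences was not tested.

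The shares given here are for members chosen with earlier results of these data known. Of the 49 tested transporter probes 3 were called, all higher, and 46 were not. This is 6.12% of them, against 7.09% of all tested probes called in either direction and 3.89% called higher, a share near that background. Probes called lower numbered 0 of the 49, against 3.21% of all tested probes. At an unadjusted limma p under 0.05 there were 15 of the 49 (30.6%, against 19.6% of all tested probes), of which 6 were higher (10.0% of all tested probes were) and 9 lower (9.57% of all tested probes were). With mean values past the 70th percentile there were 24 transporter probes, of which 3 were called (12.5%), against 13.0% of all such probes. Called probes with a fold of at least 1.5 were 1.62% of all tested probes, and SLC7A5 was the only transporter probe among them. The median difference of the tested members was -0.05, against 0.00 over all tested probes, and 33 of the 49 were negative (67.3%, against 51.2% of all tested probes). That median shift is small beside the SD of 0.148 that the members' median value showed between arrays of a group. Of the negative probes, 11 were of the SLC6 family, most of them near the filter limit. In 15 of the 49 the arrays of the groups did not overlap (30.6%, against 24.1% of all tested probes). Of these, 8 were above (12.3% of all tested probes were) and 7 below (11.8% of all tested probes were). The 33 probes left out by the filter had mean values between 5.78 and 6.16, at the floor of the scale, and differences between -0.16 and 0.14.

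**Figure D1:**
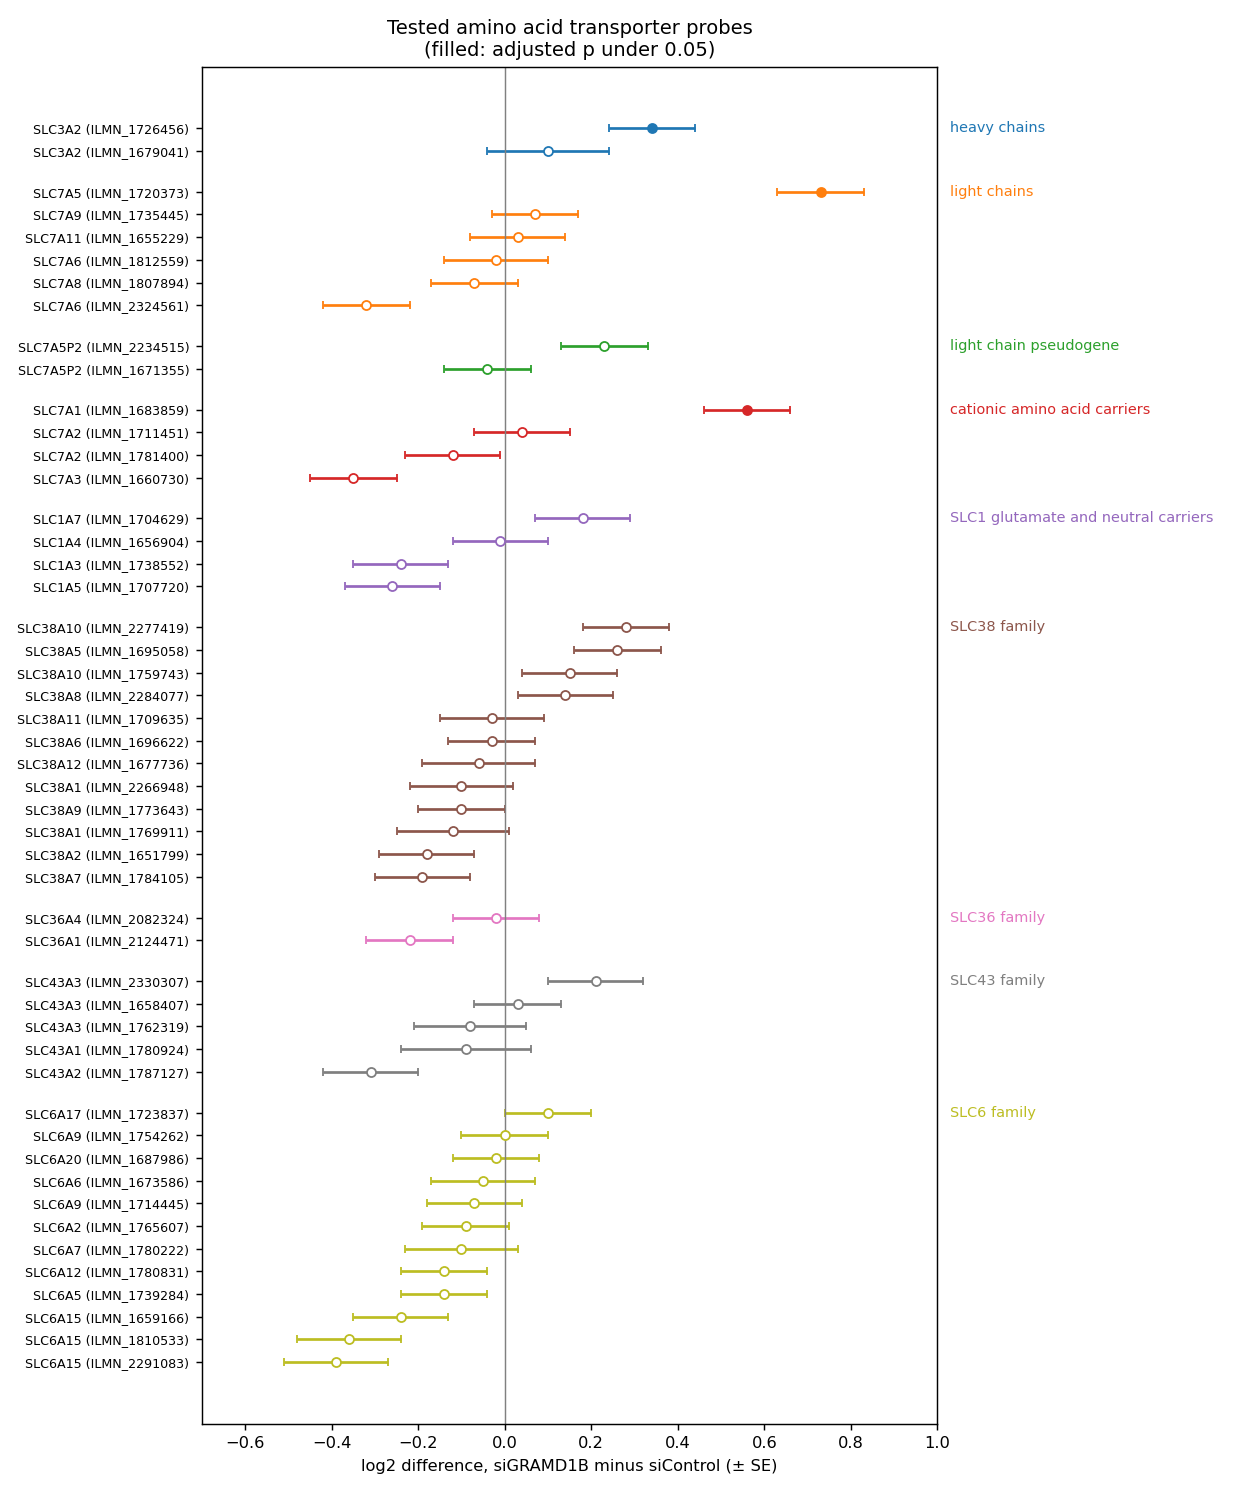
Log2 difference, siGRAMD1B minus siControl, with its SE for each of the 49 tested transporter probes (horizontal axis), grouped by role down the page. Filled points passed an adjusted p of 0.05 (SLC7A5, SLC7A1 and 1 SLC3A2 probe, all to the right of 0), and 11 of the 12 SLC6 family probes lie to the left of 0, 1 of them at 0.00 after rounding. Most of these SLC6 probes were near the floor of the scale.

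SLC7A5, the light chain of LAT1, showed the largest difference of the family. Its probe (ILMN_1720373) had 12.61, 12.57 and 12.60 in siGRAMD1B cells, against 11.82, 11.83 and 11.93 in siControl cells. The lowest siGRAMD1B array stood well above the highest siControl array, and the arrays of a group lay close together. SLC7A5 averaged 12.59 ± 0.02 in siGRAMD1B and 11.86 ± 0.06 in siControl cells (SD, n = 3 each), a 1.66-fold difference (log2 0.73 ± 0.10 SE, 95% interval 0.53 to 0.93, limma adjusted p = 9.14e-05). The separation was already present in the raw intensities, which were 6287.1, 6571.0 and 5433.8 in siGRAMD1B cells, against 3257.4, 3864.1 and 4277.7 in siControl cells. The call was kept in all 15 other settings, with log2 differences of 0.68 to 0.77.

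SLC3A2, the CD98 heavy chain that carries LAT1 to the surface, was read by a pair of tested probes, of which 1 was called. Probe ILMN_1726456 had 11.32, 11.30 and 11.38 in siGRAMD1B cells, against 10.96, 11.00 and 11.02 in siControl cells. The groups did not overlap, and the difference was 1.26-fold (log2 0.34 ± 0.10 SE, 95% interval 0.14 to 0.54, limma adjusted p = 0.0379). The other SLC3A2 probe (ILMN_1679041) had 8.18, 7.88 and 8.51 in siGRAMD1B cells, against 8.26, 8.12 and 7.88 in siControl cells. There the arrays of the groups were interleaved, and the difference of 0.10 ± 0.14 did not pass (adjusted p = 0.77). The call of ILMN_1726456 was close to the threshold: the log2 difference stayed between 0.30 and 0.36, but the adjusted p was above 0.05 in 10 of 15 other settings. Leaving out any 1 array ended it, with adjusted p between 0.0503 (without siControl replicate 4) and 0.134 (without siGRAMD1B replicate 4), as did median centring (0.22), an offset of 16 (0.14) and testing all probes without a filter (0.0543).

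The other heavy chain, SLC3A1, which serves cystine and dibasic amino acid uptake in kidney and gut with SLC7A9, lay under the filter, at 6.01 in siGRAMD1B and 5.94 in siControl cells. None of the other light chains passed the test. SLC7A6, a light chain that exchanges cationic for neutral amino acids, had 7.64, 7.61 and 7.43 by probe ILMN_2324561 in siGRAMD1B cells, against 7.87, 7.85 and 7.92 in siControl cells. All siGRAMD1B arrays were lower, but the difference of -0.32 ± 0.10 did not pass (adjusted p = 0.061). It passed in 3 of 15 other settings, namely no background correction, the deposited normalized values and the filter at the 70th percentile. The other SLC7A6 probe averaged 7.24 ± 0.12 in siGRAMD1B and 7.26 ± 0.21 in siControl cells (SD, n = 3 each), a difference of -0.02 (adjusted p = 0.95). SLC7A11, the light chain of the cystine and glutamate exchanger xCT, was dim, with 6.44, 6.52 and 6.58 in siGRAMD1B cells, against 6.62, 6.28 and 6.55 in siControl cells. Its arrays were mixed, and the difference of 0.03 had a 95% interval from -0.20 to 0.25. SLC7A8, the LAT2 light chain, was tested by 1 of its 3 probes, near the floor, with a difference of -0.07 (adjusted p = 0.784), and SLC7A9 gave 0.07 (adjusted p = 0.768). SLC7A10 and SLC7A13 lay under the filter. SLC7A7 has no probe under that symbol in the table used and was not analysed here.

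The pseudogene SLC7A5P2, a partial copy of SLC7A5, was represented by 3 probes. ILMN_2234515 had 14.48, 14.47 and 14.48 in siGRAMD1B cells, against 14.14, 14.32 and 14.27 in siControl cells. All siGRAMD1B arrays were above all siControl arrays, but the difference of 0.23 ± 0.10 did not pass (adjusted p = 0.179), and the probe lay near the highest value of the arrays, 14.79. It passed only with the trend and robust options among the settings run. The other probes of SLC7A5P2 averaged 6.20 and 6.05 in siGRAMD1B and 6.24 and 6.09 in siControl cells, at the floor. SLC7A5 and its copies share sequence, so which transcript each of these probes reads is uncertain.

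SLC7A1, the cationic amino acid transporter CAT-1 that imports arginine and lysine, was the other clear rise. It had 11.90, 11.86 and 11.84 in siGRAMD1B cells, against 11.32, 11.18 and 11.41 in siControl cells. The groups were fully apart, with averages of 11.87 ± 0.03 in siGRAMD1B and 11.30 ± 0.12 in siControl cells (SD, n = 3 each). The difference was 1.48-fold (log2 0.56 ± 0.10 SE, 95% interval 0.35 to 0.77, limma adjusted p = 0.00162), and its call was kept in all 15 other settings (log2 0.50 to 0.62). Raw intensities of SLC7A1 were 3919.5, 4091.8 and 3232.8 in siGRAMD1B cells, against 2299.4, 2439.1 and 3032.1 in siControl cells.

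SLC7A3, a cationic carrier known mainly from brain, differed by its only tested probe in the opposite direction from SLC7A1 without passing. Probe ILMN_1660730 had 6.43, 6.48 and 6.58 in siGRAMD1B cells, against 6.98, 6.71 and 6.84 in siControl cells. All siGRAMD1B arrays were lower, the difference was -0.35 ± 0.10 and the adjusted p was 0.05 after rounding, just above the threshold. It passed with array weights (adjusted p = 0.0257) and without siControl replicate 2 (0.0343). The probe is dim, and its log2 difference lay between -0.52 (offset 16) and -0.22 (the deposited normalized values). The other SLC7A3 probe (ILMN_2401457) lay under the filter, at 5.98 in both groups. SLC7A2, another cationic carrier, gave -0.12 (95% interval -0.35 to 0.12) and 0.04 by its tested probes. SLC7A4 and SLC7A14 lay under the filter.

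**Figure D2:**
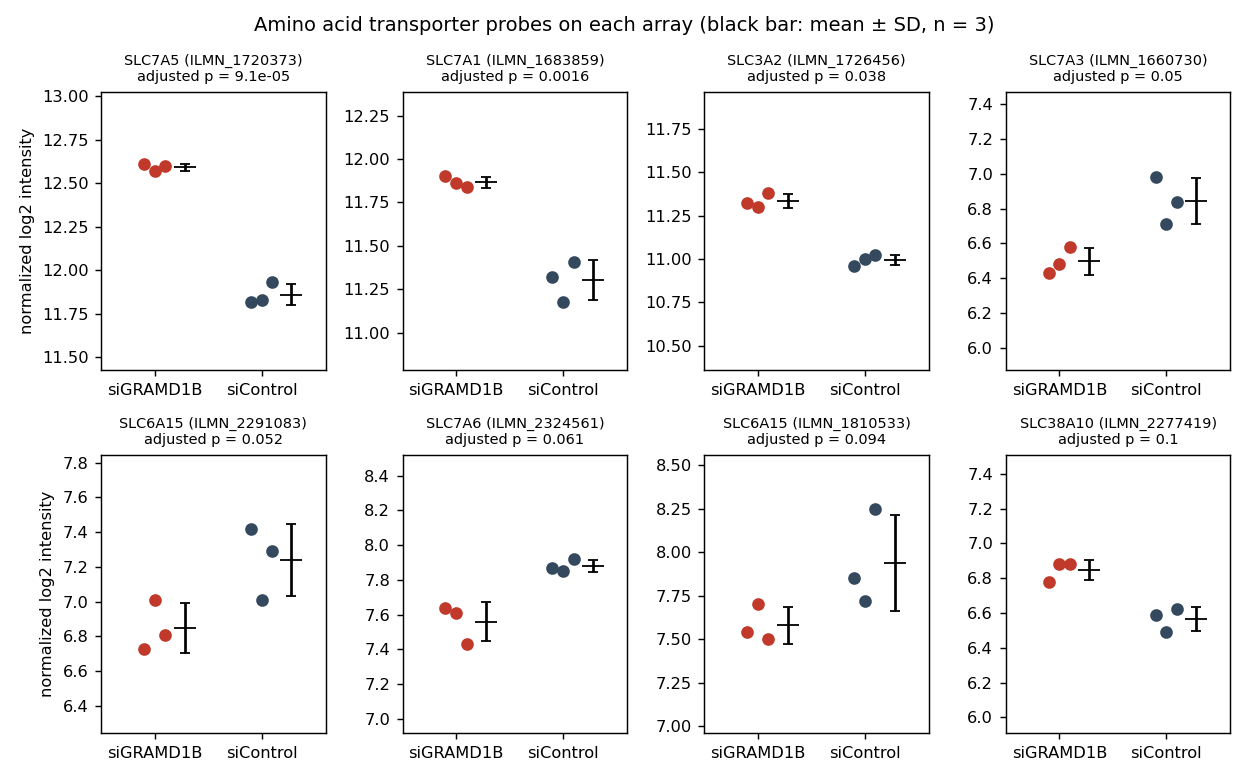
Normalized log2 intensity (vertical axis, the same span in every panel) on each siGRAMD1B array (red) and siControl array (dark) for the 3 called transporter probes and the 5 with the next smallest adjusted p, with the mean ± SD of 3 arrays in black. SLC7A5, SLC7A1 and SLC3A2 are higher on every siGRAMD1B array, and of the 5 others only SLC38A10 has its siGRAMD1B arrays on the higher side.

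None of the carriers that supply glutamine, the exchange substrate of LAT1, passed the test. SLC1A5, the neutral amino acid exchanger ASCT2, had 8.61, 8.31 and 8.52 in siGRAMD1B cells, against 8.73, 8.90 and 8.59 in siControl cells. The groups overlapped at 1 array of each, and the difference of -0.26 ± 0.11 did not pass (95% interval -0.49 to -0.03, adjusted p = 0.195). SLC38A2 (SNAT2), the sodium-coupled carrier that is a classical gene of the amino acid response, had 10.79, 10.79 and 10.94 in siGRAMD1B cells, against 11.01, 10.84 and 11.22 in siControl cells. The groups overlapped, and the difference of SLC38A2 was -0.18 (95% interval -0.41 to 0.05, adjusted p = 0.401). It was -0.27 without siControl replicate 2 and -0.08 without siControl replicate 4, not called in either. SLC38A1 (SNAT1) had 11.40, 11.42 and 10.99 by probe ILMN_1769911 in siGRAMD1B cells, against 11.35, 11.23 and 11.58 in siControl cells. Its arrays were mixed, with differences of -0.12 (95% interval -0.38 to 0.15) and -0.10 by its probes.

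In the SLC38 family 12 probes of 10 genes were tested, with differences from -0.19 to 0.28 and none called. SLC38A10 was the nearest, with 6.78, 6.88 and 6.88 in siGRAMD1B cells, against 6.59, 6.49 and 6.62 in siControl cells by a dim probe. Its siGRAMD1B arrays were all higher (0.28 ± 0.10, adjusted p = 0.102), and another SLC38A10 probe gave 0.15 (adjusted p = 0.479). SLC38A5, a carrier of glutamine and asparagine, gave 0.26 with no overlap between groups (adjusted p = 0.145). SLC38A9, the lysosomal arginine sensor that signals to mTORC1, gave -0.10 (95% interval -0.32 to 0.11), and SLC38A7, a lysosomal exporter of glutamine, gave -0.19 (adjusted p = 0.36). In the SLC36 family of proton-coupled carriers, the lysosomal member SLC36A1 gave -0.22 with no overlap (adjusted p = 0.241) and SLC36A4 gave -0.02.

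Of the SLC1 family, 4 of 7 probes were tested and none was called. SLC1A3, the glutamate and aspartate carrier of glia, had 7.50, 7.69 and 7.46 in siGRAMD1B cells, against 7.77, 7.64 and 7.98 in siControl cells, with a difference of -0.24 (adjusted p = 0.224) and overlapping groups. SLC1A4, a neutral exchanger of alanine and serine, gave -0.01, and SLC1A7, a glutamate carrier of the retina, gave 0.18 near the floor. In the SLC43 family the leucine uniporter SLC43A2 gave -0.31 ± 0.11 with no overlap (adjusted p = 0.113). SLC43A3, known as a carrier of purine bases in place of amino acids, gave 0.21, 0.03 and -0.08 by its tested probes, and SLC43A1, the leucine carrier LAT3, gave -0.09, none called.

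Among SLC6 carriers, a family that also holds the transporters of monoamines, GABA, taurine and creatine, 12 of 24 probes were tested and none was called. Their median difference was -0.10, with 11 negative and 1 positive. Apart from those of SLC6A15 and SLC6A6, these probes had means of only 6.16 to 6.35 over the 6 arrays. That is near the filter limit of 6.16, so their signs say little about the family. SLC6A15, a sodium-coupled carrier of leucine and other branched-chain and neutral amino acids known from brain, was read by 3 probes that all gave negative differences. Probe ILMN_2291083 had 6.73, 7.01 and 6.81 in siGRAMD1B cells, against 7.42, 7.01 and 7.29 in siControl cells. Its highest siGRAMD1B array met its lowest siControl array at 7.01 to 2 decimals, and the difference of -0.39 ± 0.12 had an adjusted p of 0.052. Probe ILMN_1810533 had 7.54, 7.70 and 7.50 in siGRAMD1B cells, against 7.85, 7.72 and 8.25 in siControl cells (-0.36 ± 0.12, adjusted p = 0.0936). The other SLC6A15 probe gave -0.24 (adjusted p = 0.248) with overlapping groups. Without siControl replicate 2 ILMN_2291083 passed at -0.50 (adjusted p = 0.0143) and ILMN_1810533 at -0.47 (0.0353), while without siControl replicate 4 ILMN_1810533 gave -0.21. ILMN_2291083 also passed without siGRAMD1B replicate 3 (0.0493), with array weights (0.0291) and with the filter at the 70th percentile (0.0342). The remaining SLC6 probes lay between -0.14 and 0.10, SLC6A6 (the taurine carrier) at -0.05 among them. SLC6A8, the creatine carrier, was under the filter.

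**Figure D3:**
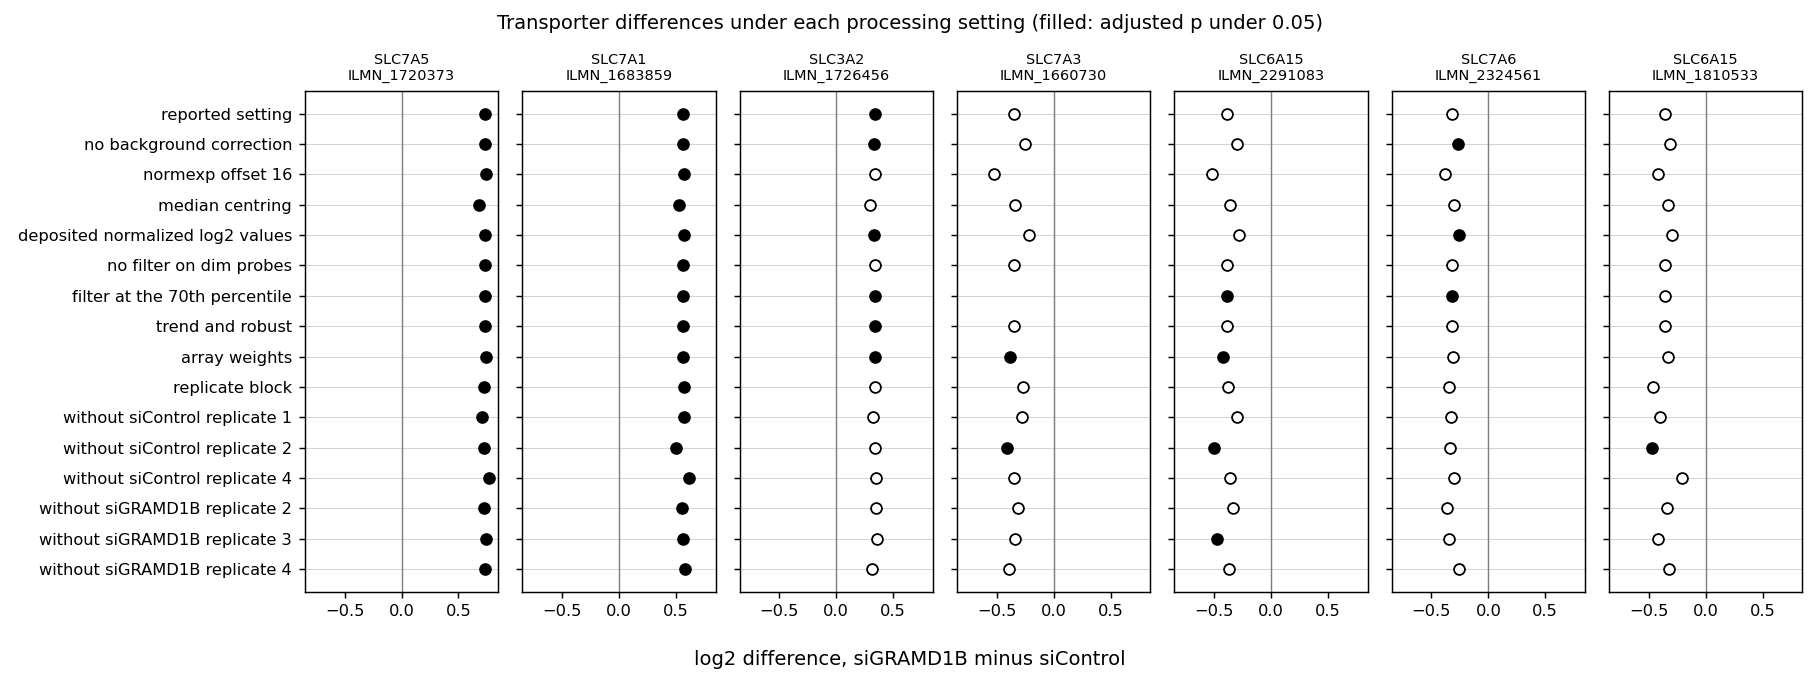
Log2 difference, siGRAMD1B minus siControl (horizontal axis), of 7 transporter probes under the reported setting and each of 15 other settings (rows), filled where the adjusted p was under 0.05. SLC7A5 and SLC7A1 are filled in every row, the SLC3A2 probe in the reported setting and 5 others, and the SLC7A3, SLC6A15 and SLC7A6 probes in few. The SLC7A3 probe has no point where only probes above the 70th percentile were tested.

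Genes around the transporters were described by lists taken from their textbook roles, with the brightest probe for each gene. The lists were drawn up with earlier results of these data known. Counted with the brightest probe, 9.43% of all tested genes were called, 5.71% higher and 3.72% lower, and the median over all tested probes was 0.00. Many list genes are bright, and of all tested probes with means past the 70th percentile 13.0% were called. Of 116 tested genes on the 6 lists together, 8 were higher, 12 lower and 96 did not pass (17.2% called). The calls of 5 of these 20 genes (PSAT1, KYNU, SLC16A10, SFXN1 and HIF1A) were kept in every other setting run for them, and those of the other 15 were lost in at least 1. The least stable were BCAT2, lost in 10 of 15 other settings, SHMT2, ASS1 and CHAC2, each lost in 9 of 15, and SLC25A44 and LAMTOR4, each lost in 8 of 15, with CASTOR2 lost in 8 of 14.

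In the amino acid response list, made of ATF4, its upstream kinase and target genes, 0 of 24 tested genes were higher and 2 were lower (median 0.02, 8.33% called). PSAT1, of serine synthesis, had 10.45, 10.42 and 10.44 in siGRAMD1B cells, against 10.99, 10.91 and 10.95 in siControl cells, and fell by 0.52 on the log2 scale (adjusted p = 0.00222). SHMT2, the mitochondrial serine hydroxymethyltransferase, fell by 0.34 (adjusted p = 0.0448). Chosen after their values were seen, ATF4 itself averaged 13.58 ± 0.03 in siGRAMD1B and 13.76 ± 0.02 in siControl cells (SD, n = 3 each, adjusted p = 0.334), ASNS, the asparagine synthetase, 10.51 and 10.77 (adjusted p = 0.13), and TRIB3, a pseudokinase, 8.76 and 8.42 (adjusted p = 0.0566). None of these 3 passed, and they had both signs.

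In the list of amino acid sensing by mTORC1, 4 of 33 tested genes were higher and 2 lower (median 0.06, 18.2% called). NPRL3, a subunit of the GATOR1 complex that restrains mTORC1, rose by 0.55 (9.95 ± 0.08 in siGRAMD1B and 9.40 ± 0.19 in siControl cells, SD, n = 3 each, adjusted p = 0.00435). SEC13, shared by the GATOR2 complex, the COPII coat and the nuclear pore, rose by 0.45 (adjusted p = 0.00742). LAMTOR4, of the Ragulator scaffold on lysosomes, rose by 0.39 (adjusted p = 0.0489), and CASTOR2, a relative of the arginine sensor CASTOR1, by 0.40 from a dim probe (adjusted p = 0.0328), with 0.25 in the deposited normalized values and 0.69 with an offset of 16. SESN1, a leucine-binding sestrin, fell by 0.44 (adjusted p = 0.0152), and FNIP2, a partner of folliculin, also fell by 0.44 (adjusted p = 0.0167).

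Among enzymes of amino acid metabolism, 2 of 23 were higher and 3 lower (median 0.02, 21.7% called). KYNU, the kynureninase of tryptophan breakdown, had 7.13, 7.01 and 7.19 in siGRAMD1B cells, against 6.60, 6.33 and 6.34 in siControl cells, and rose by 0.69 (adjusted p = 0.000461). The KYNU probe is dim, with 0.46 in the deposited normalized values and 1.02 with an offset of 16. The arginine synthesis enzymes went opposite ways, with ASS1 higher by 0.34 (adjusted p = 0.0454) and ASL lower (-0.44, adjusted p = 0.0129). ODC1, which makes polyamines from ornithine, fell by 0.44 (adjusted p = 0.0162), and BCAT2, the mitochondrial branched-chain aminotransferase, fell by 0.34 (adjusted p = 0.0479). In the cystine and glutathione list 0 of 12 were higher and 2 lower (median -0.08, 16.7% called), namely CBS, of transsulfuration (-0.46, adjusted p = 0.00795), and CHAC2, which degrades glutathione (-0.35, adjusted p = 0.0376).

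Of 14 other amino acid and peptide transporters tested, outside the SLC families above, 1 was higher and 2 were lower (median 0.01, 21.4% called). SFXN1, the mitochondrial serine carrier, had 8.58, 8.32 and 8.36 in siGRAMD1B cells, against 9.06, 8.82 and 9.11 in siControl cells, and fell by 0.58 (adjusted p = 0.00279). SLC16A10, the aromatic amino acid carrier TAT1, had 6.21, 6.38 and 6.10 in siGRAMD1B cells, against 6.80, 6.70 and 6.82 in siControl cells, and fell by 0.54 (adjusted p = 0.00302). The SLC16A10 probe is dim, and its log2 difference lay between -0.88 (offset 16) and -0.34 (the deposited normalized values). SLC25A44, the mitochondrial carrier of branched-chain amino acids, rose by 0.36 (adjusted p = 0.0288). In the list of regulators of the transporters, 1 of 15 was higher and 1 lower (median -0.08, 13.3% called), and these were the hypoxia factors EPAS1 (0.43, adjusted p = 0.023) and HIF1A (-0.71, adjusted p = 0.00116). MYC, named after its value was seen, averaged 11.74 ± 0.05 in siGRAMD1B and 11.93 ± 0.08 in siControl cells (SD, n = 3 each), a difference of -0.19 that did not pass (adjusted p = 0.298).

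**Figure D4:**
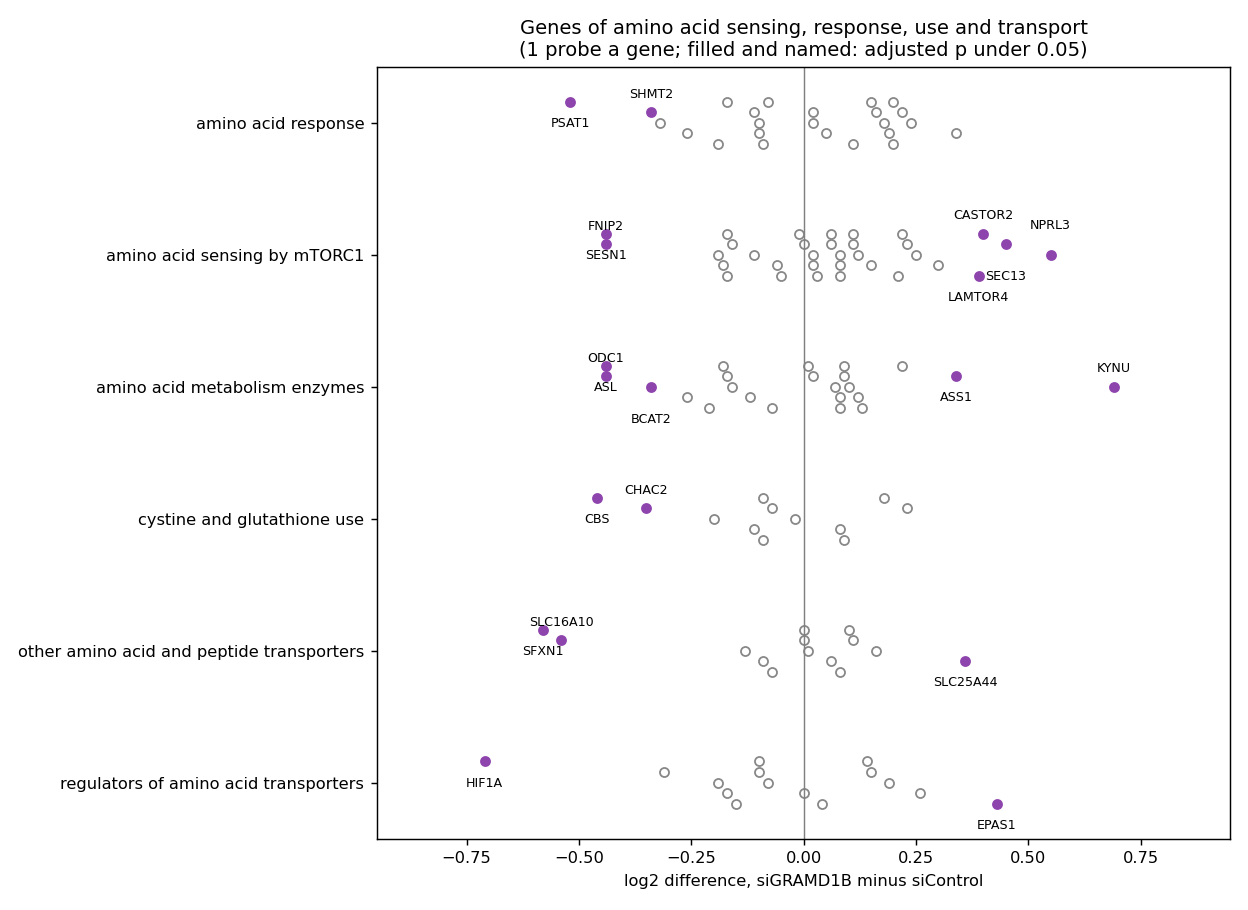
Log2 difference, siGRAMD1B minus siControl (horizontal axis), of each tested gene (points, 1 probe a gene) in 6 lists around amino acid transport (rows); filled and named points passed an adjusted p of 0.05. Called genes lie on both sides of 0, with 8 higher and 12 lower.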

How the data were processed

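Total RNA of 6 samples was made into biotin-labelled cRNA for Illumina bead arrays (from the labels' protocols), and signals were read out in BeadStudio, per the submitters' processing notes. The deposited intensity table is linear, and its values show neither normalization nor background subtraction. It has 1 header name too many, so each array's values sit 1 field left of its name and were assigned accordingly. The second deposited table holds the authors' normalized log2 values (median 6.86 in each column; method not given in the sources used here). It ranked the probes of each array like the shifted intensities (Spearman's rho 1.00 across probes, at most 0.85 for other arrays). Columns of other samples numbered 0.

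Intensities were corrected with normexp (offset 50), quantile-normalized and log2-transformed in limma 3.58.1 (R 4.3.3). Probes with a mean above the 40th percentile (6.16) were tested with lmFit and eBayes (2-sided, 17.9 degrees of freedom). The procedure was run on simulated data with changes planted in bright probes only. The planted folds were larger than those named here in the reported setting, so the run does not cover differences of the size reported. Symbols are those of the probe annotation used here, and all 82 member probes carry the same symbol in RefSeq. Genes were matched by identifier, so this is no independent check of the annotation or of what a probe reads. Members and lists were chosen with earlier results of these data known. Values per array or group, or the difference alone, are given for called probes, other tested probes of their genes and tested heavy and light chains. The same holds for SLC1A5, SLC38A1, SLC38A2, SLC7A1, the next 5 probes by adjusted p, GRAMD1B and called list genes. Alternatives were other background, scaling, filter and variance settings, the replicate block and each array left out.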

Additional observations from a re-analysis of the deposited data

How the results depend on the processing

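SLC7A5 and SLC7A1 passed in all 15 alternatives. The number of transporter probes called higher was 3 as reported and 2 to 4 over the alternatives. The number called lower, 0 as reported, was 1 with no background correction and with the deposited normalized values (SLC7A6 in both), 2 with the filter at the 70th percentile and 2 with array weights, and 0 to 3 when 1 array was left out (3 without siControl replicate 2). The median difference of the members stayed between -0.10 and -0.02. Genes of the 6 lists called higher, 8 as reported, numbered 1 with the offset of 16, 2 with median centring, 2 with the replicate block and 3 to 6 when 1 array was left out. Those called lower, 12 as reported, numbered 4 with the offset of 16, 4 with median centring, 7 with the replicate block and 5 to 10 when 1 array was left out. Over all probes 449 to 1369 were called higher, against 1101, and 234 to 1163 lower, against 909, and the offset of 16 gave 65.7% of calls higher, against 54.8%.

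Some differences near 0 changed sign under an alternative, none of them called. With 1 array left out, SLC38A1 ranged from -0.20 to 0.02 (ILMN_1769911, positive without siGRAMD1B replicate 4) and from -0.19 to 0.03 (ILMN_2266948, positive without siControl replicate 2). SLC3A2 ILMN_1679041 ranged from -0.06 (without siGRAMD1B replicate 4) to 0.26, with 0.00 without siControl replicate 4. SLC7A11 ranged from -0.08 (without siControl replicate 2) to 0.10, with -0.01 without siGRAMD1B replicate 4, and array weights gave 0.00. SLC7A6 ILMN_1812559 ranged from -0.12 to 0.09 (without siControl replicate 4), with 0.02 and 0.00 without siGRAMD1B replicates 2 and 3. The cause was not tested.

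The groups share only the numbers 2 and 4, and nothing says that a number marks a common culture. Deviations from the group means of same-numbered arrays correlated at 0.02 and -0.15 across probes, which are not independent. With the number as a replicate block SLC7A5 (log2 0.72, adjusted p = 0.000276) and SLC7A1 (0.57, 0.0095) were called and SLC3A2 was not (0.34, 0.272), and 987 probes were called in place of 2010. That fit takes the difference from the arrays numbered 2 and 4 only, so it holds little information on the spread of a single probe.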
